A study of Mus musculus with 6 samples.

Results

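The genes described here encode the pore-forming and accessory subunits of potassium, calcium, sodium and TRP cation channels. They were chosen by name from the protein-coding genes of a mouse RNA-seq table: the Kcn families from Kcna to Kcnv except Kcnj8, the Cacna, Cacnb and Cacng genes (with the Cacna2d genes), the Scn genes, and the Trpc, Trpv and Trpm genes. The rule found 141 genes among the 52636 in the table: 80 potassium, 26 calcium, 14 sodium and 21 TRP channel genes. The rule reads gene symbols and types, not levels.

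The RNA came from MC-38 cells, a mouse colon tumor line, that had grown under the skin of the flank in female mice aged 6 to 10 weeks. Tumors were digested with enzymes and tumor cells were sorted by flow cytometry before total RNA was extracted. The control group carried the genotype label M1E5-Thy1.1 (3 libraries). The other group carried the label MC-38 M1E5-Zfx-KO-Thy1.2 (3 libraries), a knockout by name of Zfx, a zinc finger transcription factor. M1E5 stands in both labels, and no library had a treatment. The Zfx label and the Thy1 marker change together, so their effects cannot be told apart. The labels do not say whether a group is 1 clone or whether each library is a different mouse, so the p-values rest on the variation among these libraries alone, and that variation may be technical.

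Voltage-gated channels open when the membrane potential changes: sodium and calcium channels let positive charge in, and most potassium channels let it out and bring the cell back towards rest. Inward rectifier and tandem-pore potassium channels set the resting potential, and calcium-activated potassium channels couple it to calcium inside the cell. TRP channels pass cations in response to lipids, heat, stretch or calcium. In tumors these genes are expressed by the tumor cells and by vessels, mural cells and nerves.

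The libraries held 42392848 to 42962578 reads in the control group, and 37763096, 38228434 and 65050908 reads in replicates 1, 2 and 3 of the group labelled Zfx-KO. Zfx itself went against the label. Its level was 5.68, 5.88 and 5.46 log2 CPM (reads scaled to the size of the library) among controls and 6.30, 6.41 and 6.22 in libraries labelled Zfx-KO, so that the second group was the higher one without overlap. The log2 difference was 0.64 (SE 0.10, limma adjusted p = 0.000473); an exact permutation test over the 6 libraries gave p = 0.1, the smallest it allows. The position of the edit is not given, so reads from elsewhere in the gene may not check it. An exchange of the labels, which would turn each direction given, was not tested. Every direction below is that of libraries labelled Zfx-KO.

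Markers of several other cell types also differed between the groups, although the cells had been sorted. Summed over 8 genes each, pericyte markers were at 310 to 359 CPM among controls and 525 to 658 CPM in libraries labelled Zfx-KO, and smooth muscle markers at 187 to 228 and 345 to 378 CPM. All 8 genes of both lists passed the test as higher, where all genes tested gave 24.9% higher and 19.5% lower. Among controls, Cspg4 (224 to 244 CPM) and Pdgfrb (84.9 to 114 CPM) carried the pericyte sum, and Smtn (186 to 227 CPM) the smooth muscle sum. Rgs5 was at 0.093 to 0.83 CPM there against 37.1 to 123 CPM, and Acta2 at 0.26 to 0.78 against 38.1 to 63.8 CPM. Abcc9 and Higd1b of the pericyte list had no read in any control. Endothelial markers summed to 21.1 to 27.7 and 116 to 143 CPM, with 8 of 8 higher. Fibroblast markers summed to 1231 to 1367 and 4979 to 6378 CPM, with 5 of 8 higher and 2 lower. Schwann cell markers summed to 47.0 to 53.8 and 83.4 to 95.9 CPM, with 5 of the 7 tested higher and Foxd3 at 0 reads. Neuron markers were at 157 to 178 and 130 to 155 CPM, carried by Tubb3, and Rbfox3, Snap25, Elavl4, Stmn2 and Nefl had no read in the controls. Gut epithelial markers, which would fit the labelled colon origin, summed to 0.983 to 1.79 and 15.7 to 22.2 CPM, with 2 of the 4 tested higher. Krt8 carried the difference (2, 0 and 3 reads against 524, 738 and 1309), Cdh1 and Vil1 did not pass, and Epcam had too few reads to test. Cdx2 was at 0 reads in every library and Krt18 and Krt20 at 0 in the controls. Macrophage markers (35.1 to 163 and 71.0 to 189 CPM, 1 of 8 higher) overlapped between the groups. So did lymphocyte markers (1.63 to 5.80 and 2.90 to 7.34 CPM, 2 of the 6 tested higher). Skeletal muscle markers summed to 1.45 to 1.72 and 1.83 to 2.23 CPM, and none of the 3 tested passed. The part of these cell types in the channel results was not tested. In bulk libraries, more cells of a type and more RNA per cell cannot be told apart.

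Promoters are shown first for 6 genes picked by their values. Of these, 3 were at 0 reads among controls and present in libraries labelled Zfx-KO (Scn7a, Trpc6 and Kcnj15). The other 3 were abundant genes that were lower there (Kcnn4, Trpm7 and Cacna2d1). Each is 300 bases around the annotated start, from RefSeq on GRCm38.p6, written 5′ to 3′ on the strand of the gene, with CpG dinucleotides in capitals. The windows are chr2:66784861-66785160 on the minus strand (Scn7a), chr9:8543892-8544191 on the plus strand (Trpc6), chr16:95257308-95257607 on the plus strand (Kcnj15), chr7:24370013-24370312 on the plus strand (Kcnn4), chr2:126876212-126876511 on the minus strand (Trpm7) and chr5:15934441-15934740 on the plus strand (Cacna2d1).
Scn7a: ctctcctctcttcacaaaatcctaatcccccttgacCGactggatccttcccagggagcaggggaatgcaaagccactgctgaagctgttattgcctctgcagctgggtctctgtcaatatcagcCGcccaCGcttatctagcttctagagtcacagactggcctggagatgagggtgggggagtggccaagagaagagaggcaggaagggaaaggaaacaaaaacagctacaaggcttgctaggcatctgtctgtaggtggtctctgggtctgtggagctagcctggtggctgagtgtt
Trpc6: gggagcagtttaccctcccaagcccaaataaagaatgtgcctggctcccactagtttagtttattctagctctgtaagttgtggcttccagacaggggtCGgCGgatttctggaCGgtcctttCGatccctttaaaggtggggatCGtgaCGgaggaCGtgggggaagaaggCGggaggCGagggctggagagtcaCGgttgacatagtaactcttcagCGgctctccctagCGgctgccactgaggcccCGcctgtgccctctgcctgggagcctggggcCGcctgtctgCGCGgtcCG
Kcnj15: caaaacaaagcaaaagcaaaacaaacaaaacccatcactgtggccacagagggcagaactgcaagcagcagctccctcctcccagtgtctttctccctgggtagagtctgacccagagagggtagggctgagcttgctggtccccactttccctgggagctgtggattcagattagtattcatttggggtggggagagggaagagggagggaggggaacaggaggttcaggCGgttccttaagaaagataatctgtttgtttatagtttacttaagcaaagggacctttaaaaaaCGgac
Kcnn4: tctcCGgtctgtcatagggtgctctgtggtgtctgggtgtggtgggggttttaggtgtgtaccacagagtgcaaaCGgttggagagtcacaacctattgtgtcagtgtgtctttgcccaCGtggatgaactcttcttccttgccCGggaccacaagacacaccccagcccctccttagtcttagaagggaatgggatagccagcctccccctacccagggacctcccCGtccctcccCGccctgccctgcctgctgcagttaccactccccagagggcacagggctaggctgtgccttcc
Trpm7: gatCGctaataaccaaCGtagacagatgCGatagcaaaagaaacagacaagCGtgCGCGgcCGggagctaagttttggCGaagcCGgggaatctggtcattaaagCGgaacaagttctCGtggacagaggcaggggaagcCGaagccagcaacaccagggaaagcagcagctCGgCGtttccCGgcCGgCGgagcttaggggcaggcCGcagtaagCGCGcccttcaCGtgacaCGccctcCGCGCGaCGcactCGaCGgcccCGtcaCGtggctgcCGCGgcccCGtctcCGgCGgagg
Cacna2d1: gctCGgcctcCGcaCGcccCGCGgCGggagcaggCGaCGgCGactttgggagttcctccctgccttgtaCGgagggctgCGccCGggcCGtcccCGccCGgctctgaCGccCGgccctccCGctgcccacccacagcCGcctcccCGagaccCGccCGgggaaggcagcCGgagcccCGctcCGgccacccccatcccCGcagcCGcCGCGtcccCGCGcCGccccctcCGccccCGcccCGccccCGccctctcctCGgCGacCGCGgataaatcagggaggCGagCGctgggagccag
The Kcnj15 and Scn7a windows held 2 and 3 CpG, and the Kcnn4 window 6. Those of Trpc6, Trpm7 and Cacna2d1 held 17, 35 and 42. The observed over expected CpG ratio was 0.14 for Scn7a, 0.11 for Kcnj15, 0.23 for Kcnn4, 0.64 for Trpc6, 0.92 for Cacna2d1 and 1.16 for Trpm7, beside a median of 0.38 over the 32851 promoters of the table. Both the higher and the lower genes shown thus included windows with few CpG and windows with many. The letters AGGCCT, the core sequence bound by ZFX-family factors and the same on both strands, were in 7 of the 136 promoters matched to 105 of the channel genes (5.15%) and in 10.3% of all promoters in the table. Among genes that passed the test they were in a window of Cacna1c and of Cacnb1. They were in none of the 6 windows shown, which says only that these letters are not there.

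Of the 141 channel genes, 73 had enough reads to be tested. Of these, 33 were higher in libraries labelled Zfx-KO, 7 were lower and 33 did not pass (limma, Benjamini-Hochberg adjusted p under 0.05). Over all 20094 genes tested, 24.9% were higher and 19.5% lower. Over the 14525 protein-coding genes among them, 29.8% were higher and 24.5% lower. The higher share among the channel genes was 45.2% and the lower share 9.59%. With gene medians set equal, 27 channel genes were higher and 8 lower, and with quantile normalization 27 and 16. These scalings shifted the median of all genes by -0.21 and -0.17 on the log2 scale. The first turned the balance of all genes to 3224 higher and 6357 lower. With the second, 47.5% of the calls over all genes and 62.8% of those over channel genes were higher. With a change of at least 2-fold as well, 27 were higher and 1 lower, where all genes gave 11.6% and 3.65%. Those counts were 24 and 2 with equal medians, and 23 and 11 with quantile normalization. Groups without overlap were found for 49 of the 73 (67.1%), against 54.1% of all genes and 62.7% of the protein-coding genes. The median log2 fold change was 0.82 for the channel genes and 0.094 for all genes. Tested channel genes at 0 control reads lie above that median even at their lower bound, so using the bounds cannot move it. The channel median was 0.21 with quantile normalization, 0.31 with a stricter filter and 0.46 with a pseudocount 4 times as large.

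Most of the rises were in scarce genes. Of the 33, 21 had at most 10 reads over the 3 controls together and 14 had reads in every control. For 8 tested genes no control had a read, and all 8 were called higher. The filter asks for reads in at least 3 libraries. Every higher gene without reads in all 3 controls could meet it only with reads from the other group. Such genes, these 8 among them, and their adjusted p-values given below are no support for a direction. Among the 53 tested channel genes with a mean under 0 log2 CPM, 25 were higher and 1 lower, where all genes of that range gave 22.8% and 3.65%. The same 25 and 1 changed by at least 2-fold (22.0% and 3.31% of all such genes), and 35 had groups without overlap (37.5%). Among the 20 with a mean of at least 0 log2 CPM, 8 were higher and 6 lower, where all genes of that range gave 26.1% and 28.6%. By at least 2-fold, 2 were higher and 0 lower (5.7% and 3.85% of all such genes), and 14 had groups without overlap (63.6%). The median log2 fold change was 1.29 in the scarce and 0.13 in the abundant set, where all genes of those ranges gave 0.46 and 0.0036.

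**Figure D1:**
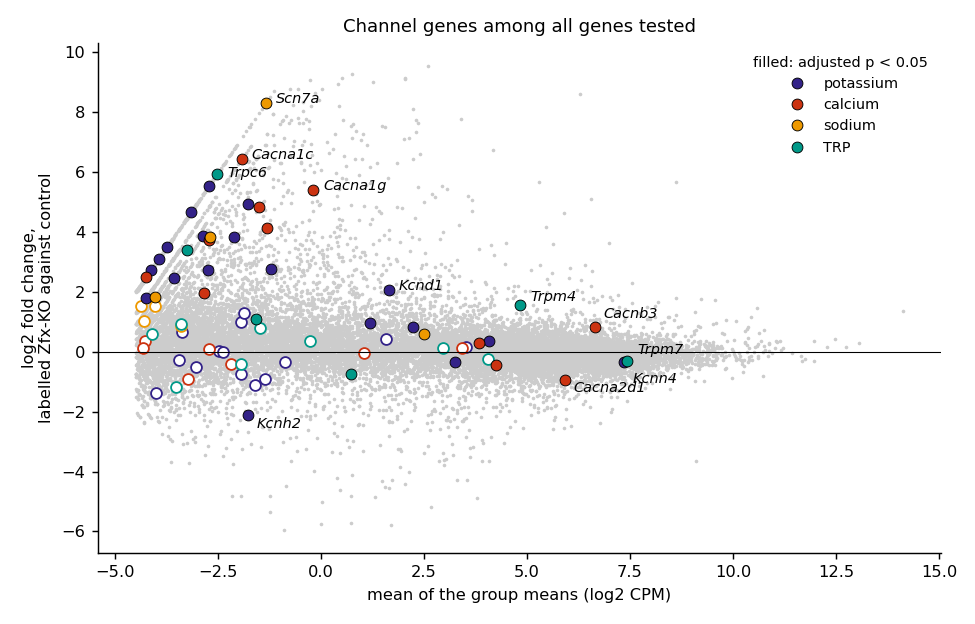
Log2 fold change (labelled Zfx-KO against control) of every tested gene, grey, and of the channel genes, coloured by class, against the mean level in log2 CPM; filled points passed the limma test and open points did not. The largest rises lie at low mean levels, up to 8.30 for Scn7a, and the most abundant channel genes, Kcnn4 and Trpm7, lie at -0.35 and -0.31.

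The other 68 genes were not tested. Of these, 34 had no read in any of the 6 libraries, which allows up to 3 reads, or 0.0461 to 0.0794 CPM by library. They included 11 of the 40 voltage-gated potassium channel genes, 7 of the 14 inward rectifiers and 5 of the 14 tandem-pore genes. They also included 3 of the 8 calcium gamma genes, 3 of the 7 Trpc genes and 2 of the 6 Trpv genes. The brain sodium channel gene Scn1a was among them. The remaining 34 had at most 22 reads in a library; that highest count belonged to Kcnk1, a tandem-pore channel gene chosen here after its values were seen, with 0 reads among controls and 0, 5 and 22 in libraries labelled Zfx-KO. In all, 26 genes had reads in libraries labelled Zfx-KO and none in the controls, and 4 had the reverse.

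Channel genes with at least 1 read numbered 65, 56 and 67 among controls and 88, 89 and 97 in libraries labelled Zfx-KO. After every library was thinned to the depth of the shallowest, the counts were 62, 55 and 67 against 88, 88 and 91. The number detected was thus higher in every library labelled Zfx-KO at equal depth. Over the whole table, as deposited, genes with a read also numbered more there, 21845 to 23223 against 20631 to 20794. The summed level of all channel genes moved little: 703, 675 and 687 CPM among controls and 716, 687 and 692 CPM in the other group. Kcnn4, Trpm7, Cacnb3 and Cacna2d1 together took 77.8% to 78.8% of these reads among controls and 67.3% to 69.2% in libraries labelled Zfx-KO. By class, sodium channel genes summed to 3.51 to 5.64 CPM against 13.8 to 15.9 CPM, and calcium channel genes to 206 to 213 against 231 to 239 CPM, both without overlap. Scn7a, with no control read, gave 6.30 to 7.73 CPM of the sodium sum in libraries labelled Zfx-KO. Within the calcium sum, mean CPM went from 75.9 to 133 for Cacnb3 and from 84.5 to 44.1 for Cacna2d1. Potassium channel genes (211 to 251 against 198 to 231 CPM) and TRP genes (221 to 254 against 221 to 238 CPM) overlapped.

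**Figure D2:**
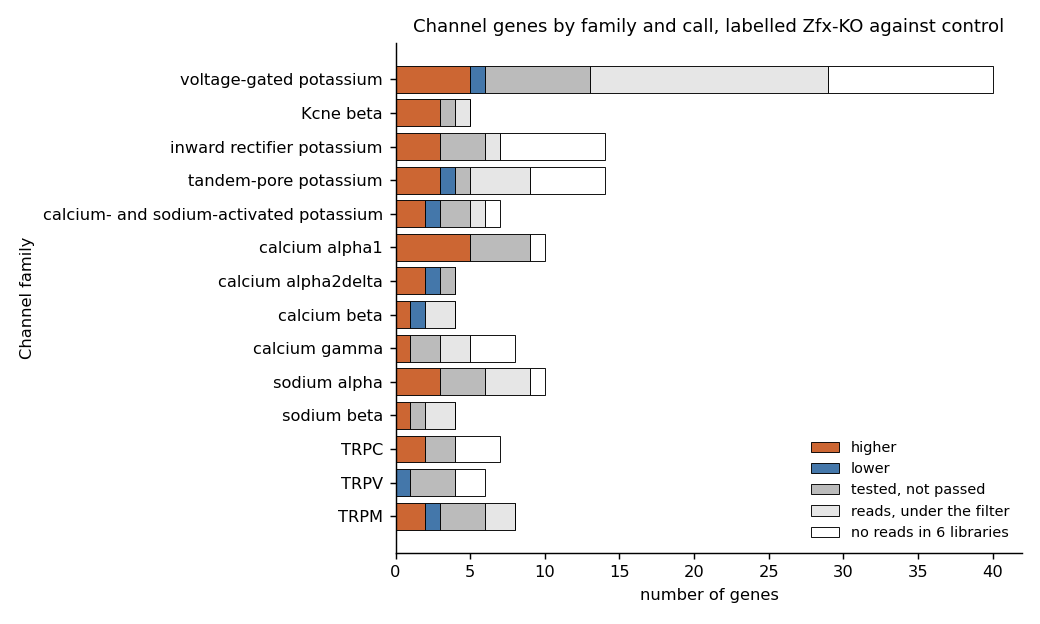
Number of channel genes in each family that were higher, lower, tested without passing (limma), under the filter with some reads, or without a read in any of the 6 libraries. The tested alpha1 calcium genes split into 5 higher and 4 not passed, and 27 of the 40 voltage-gated potassium genes were not tested.

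The 8 channel genes with the highest levels per kilobase differed by log2 values from -0.94 for Cacna2d1 to 1.55 for Trpm4. Kcnn4 encodes the intermediate-conductance calcium-activated potassium channel, and had the highest level per kilobase of exon, 92.0 ± 10.5 CPM per kilobase (SD, n = 3) among controls and 72.1 ± 8.24 in libraries labelled Zfx-KO. Its level was 197, 162 and 201 CPM among controls and 160, 128 and 151 CPM in the other group (chr7:24370263-24385205). All 3 libraries labelled Zfx-KO lay below all controls, the nearest pair by very little. The log2 difference was -0.35 (SE 0.10, limma adjusted p = 0.0168), and it lost its call without control replicate 1 (adjusted p = 0.0566), without control replicate 3 (0.0639) or without replicate 2 of the group labelled Zfx-KO (0.0764), by limma.

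Trpm7 encodes a channel fused to a protein kinase that carries magnesium and calcium (chr2:126791565-126876230). It stood at 7.58, 7.72 and 7.43 log2 CPM among controls and 7.31, 7.30 and 7.18 in libraries labelled Zfx-KO, all of them lower. The difference was -0.31 (SE 0.078, limma adjusted p = 0.00794), and the level per kilobase was 26.9 ± 2.75 and 21.6 ± 1.07 CPM (SD, n = 3 each). Trpm4 encodes a channel for monovalent cations that opens when calcium rises in the cell (chr7:45303155-45333769), and moved the other way. It was at 4.07, 3.78 and 4.34 log2 CPM among controls and 5.57, 5.62 and 5.65 in libraries labelled Zfx-KO, a gap far wider than the spread within either group. The difference was 1.55 (SE 0.12, limma adjusted p = 4.7e-06), and the level per kilobase was 3.92 ± 0.76 and 11.3 ± 0.30 CPM (SD, n = 3 each).

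Auxiliary calcium channel subunits were abundant and moved in both directions. Cacnb3 encodes a cytoplasmic beta subunit that brings calcium channels to the membrane (chr15:98632220-98644530). It was at 6.25, 6.10 and 6.37 log2 CPM among controls and 7.04, 7.03 and 7.11 in libraries labelled Zfx-KO. The groups did not overlap, and it was higher by 0.82 (SE 0.072, limma adjusted p = 1.07e-05). Cacnb1, the beta subunit of the skeletal muscle calcium channel (chr11:98001508-98022634), was at 4.44, 4.42 and 4.58 against 4.03, 3.99 and 4.08. It was lower by a log2 difference of -0.45 (SE 0.079, limma adjusted p = 0.00106) without overlap. Cacna2d1 encodes an extracellular alpha2delta subunit, the target of gabapentin (chr5:15934691-16374511). It was at 6.40, 6.48 and 6.32 log2 CPM among controls and 5.51, 5.56 and 5.32 in libraries labelled Zfx-KO, the largest fall of the 8 channel genes with the highest levels. The difference was -0.94 (SE 0.077, limma adjusted p = 6.49e-06), from 10.1 ± 0.57 to 5.26 ± 0.45 CPM per kilobase (SD, n = 3 each).

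Kcnk2 encodes the stretch-sensitive tandem-pore channel TREK-1 (chr1:189207930-189402218). It was at 3.92, 3.99 and 3.74 log2 CPM among controls and 4.32, 4.31 and 4.11 in libraries labelled Zfx-KO. The groups did not overlap and the difference was 0.36 (SE 0.10, limma adjusted p = 0.0115). That call was lost when gene medians were set equal (difference 0.15, limma adjusted p = 0.196), and without replicate 1 or 2 of the group labelled Zfx-KO (limma adjusted p = 0.0525 and 0.0505). Of its exon bases, 604 also lie in exons of A430027H14Rik; strand use in the counting is not given in the sources used here, so reads of the pair cannot be told apart. Cacng7, a gamma subunit gene (chr7:3332955-3368221), was at 3.22, 3.39 and 3.44 against 3.22, 3.70 and 3.50, with overlapping groups. Its difference of 0.12 (SE 0.13, limma adjusted p = 0.497) did not pass.

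Cacnb3 and Trpm7 changed places in the order of levels per kilobase. Trpm7 was at 24.2 to 29.7 and Cacnb3 at 22.0 to 26.5 CPM per kilobase in the controls, with overlap, whereas Cacnb3 was at 41.8 to 44.3 and Trpm7 at 20.4 to 22.3 in libraries labelled Zfx-KO, without overlap.

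**Figure D3:**
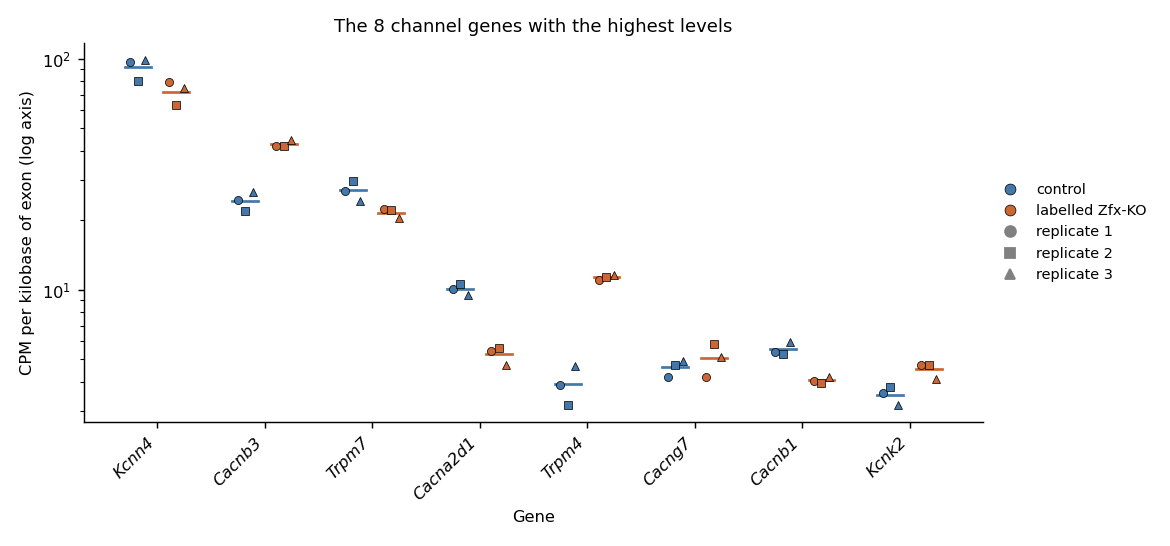
CPM per kilobase of exon (log axis) of the 8 channel genes with the highest levels, 1 point per library, with the group means as lines. Kcnn4 is the highest in every library, and Trpm4, Cacnb3 and Cacna2d1 show the widest gaps between groups.

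Among pore-forming calcium channel genes, 5 of the 9 tested alpha1 genes were higher and none lower (24.9% and 19.5% of all genes). Cacna1c encodes the L-type channel of heart and smooth muscle (chr6:118587240-119196418). It had 1, 0 and 0 reads among controls and 79, 125 and 132 in libraries labelled Zfx-KO, where its level was 1.08, 1.72 and 1.04 log2 CPM. The ratio of pooled CPM was 305 (95% exact interval 54.4 to 12087, counting error only; limma adjusted p = 1.81e-06). Cacna1g encodes a T-type channel, which opens at low voltages (chr11:94408391-94474198). It had 3, 6 and 6 reads against 178, 245 and 387. Its level rose from -2.89 ± 0.46 to 2.50 ± 0.23 log2 CPM (SD, n = 3 each), a difference of 5.39 (SE 0.30, limma adjusted p = 5.49e-07). Cacna1f encodes the L-type channel of retinal photoreceptors (chrX:7607099-7635196). It had 1, 5 and 1 reads among controls and 62, 72 and 136 in libraries labelled Zfx-KO, and was higher by 4.83 (SE 0.47, limma adjusted p = 2e-05). Cacna1b, the N-type channel gene of nerve endings, was higher by 0.28. That call was lost with equal medians (0.064, limma adjusted p = 0.57), with quantile normalization and without replicate 1 or 3 of the group labelled Zfx-KO. Cacna1h, another T-type gene, was higher by 1.96, or by 1.12 without control replicate 1. Its call was lost in that case, without each library labelled Zfx-KO in turn (limma adjusted p from 0.0789 to 0.121), and under both other scalings; 158 of its exon bases lie in exons of another gene.

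Of the 9 tested accessory calcium channel genes (alpha2delta, beta and gamma), 4 were higher and 2 lower (24.9% and 19.5% of all genes). Cacnb3, Cacnb1 and Cacna2d1 are given above. Cacna2d2, an alpha2delta gene (chr9:107399612-107529343), had 7, 2 and 2 reads among controls and 52, 86 and 94 in libraries labelled Zfx-KO. It was higher by 4.12 (SE 0.45, limma adjusted p = 4.83e-05), with 82 exon bases shared with Gm17141. Cacna2d4 had 3 pooled control reads and 73 in the other group, a ratio of 22.1 (95% exact interval 7.27 to 110). It neighbours Cacna1c on chromosome 6. Cacng4, a gamma gene whose product is known in brain as a partner of glutamate receptors, had no control read and 2, 6 and 8 reads in libraries labelled Zfx-KO, at least 4.84-fold above 3 reads over the control group (limma adjusted p = 0.00511).

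Sodium channel genes were scarce in the controls, and 4 of the 8 tested were higher and none lower (24.9% and 19.5% of all genes). Scn7a encodes an atypical sodium channel known as a sensor of extracellular sodium in glia (chr2:66673425-66784914). No control held a read, and the libraries labelled Zfx-KO held 292, 241 and 455, or 2.96, 2.66 and 2.81 log2 CPM. All 3 thus had it at a like level, at least 299-fold above 3 reads over the control group (limma adjusted p = 5.65e-08). Scn2a, a sodium channel gene of brain neurons (chr2:65620771-65767447), had 0, 1 and 2 reads against 24, 24 and 29. Its pooled ratio was 23.3 (95% exact interval 7.68 to 115; limma adjusted p = 0.000178). Scn3a, next to it, had 2 pooled control reads against 14, and its call was lost without 4 of the 6 libraries, each left out in turn. Of the 5 sodium channel genes on this stretch of chromosome 2, Scn1a had no read in any library and Scn9a had 1 read among controls and none in the other group.

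Of the TRPC genes, 2 of the 4 tested were higher (24.9% of all genes). Trpc6 encodes a channel opened by diacylglycerol, known in smooth muscle and kidney podocytes (chr9:8544142-8680741). No control had a read, and the libraries labelled Zfx-KO had 72, 65 and 48, or 0.95, 0.78 and -0.40 log2 CPM. It was at least 56.0-fold above 3 reads over the control group (limma adjusted p = 5.22e-06), with replicate 3 the lowest of the 3. Trpv3, a heat-sensing channel gene of skin, had 76, 104 and 91 reads among controls and 38, 70 and 70 in libraries labelled Zfx-KO. Its log2 CPM overlapped between the groups, and the difference was -0.73 (SE 0.26, limma adjusted p = 0.0444). The call was lost without control replicate 2 or 3 and without replicate 1 or 3 of the other group (limma adjusted p from 0.0997 to 0.153). The other 3 tested Trpv genes did not pass.

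**Figure D4:**
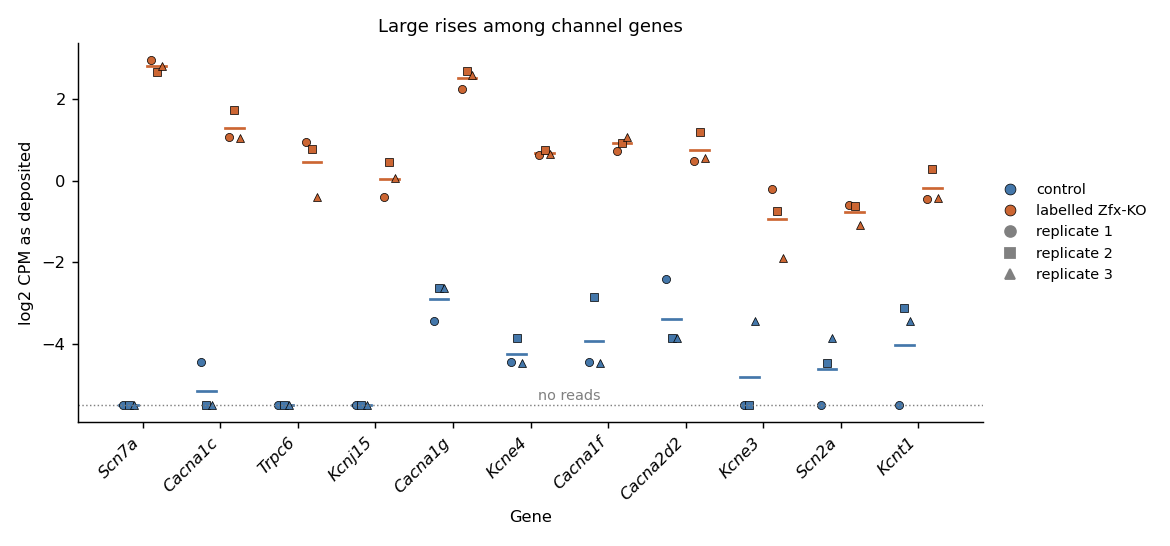
Level in log2 CPM of 11 of the largest rises, 1 point per library (shape gives the replicate), with group means as short lines; the dotted line is the value of a library with no read. For all 11, each library labelled Zfx-KO lies above every control, which the rule that picked them required.

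Potassium channel genes gave 16 higher and 3 lower among 33 tested (24.9% and 19.5% of all genes). Inward rectifiers included Kcnj15 (chr16:95257558-95300260), a channel gene known in kidney. It had no control read and 28, 52 and 67 reads in libraries labelled Zfx-KO, at least 44.5-fold above 3 reads over the control group (limma adjusted p = 4.59e-06). Its neighbour Kcnj6 had no read in any library. Kcnj2, which sets the resting potential of muscle, had 3, 0 and 3 reads against 8, 25 and 22; its log2 difference of 2.74 was 2.05 without control replicate 2.

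Kcne genes encode small single-pass subunits that modify voltage-gated potassium channels, and 3 of the 4 tested were higher (24.9% of all genes). Kcne4, which inhibits several of those channels (chr1:78816758-78820028), had 1, 2 and 1 reads among controls and 58, 64 and 101 in libraries labelled Zfx-KO. It was higher by 4.94 (SE 0.36, limma adjusted p = 2.93e-06). Kcne3, a partner of Kcnq1 in the intestine (chr7:100176679-100184869), had 0, 0 and 3 reads against 32, 22 and 16, a ratio of 21.2 (95% exact interval 6.96 to 105; limma adjusted p = 0.00107). Its fitted log2 difference was 3.86, and 4.54 without control replicate 3.

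Among voltage-gated potassium genes, 5 of 13 tested were higher and 1 lower (24.9% and 19.5% of all genes). Kcnd1 encodes a rapidly inactivating channel (chrX:7822289-7838280) and had reads in every library. It was at 0.57, 0.60 and 0.65 log2 CPM among controls and 2.49, 2.71 and 2.83 in libraries labelled Zfx-KO. The groups were far apart beside their spread, and the difference was 2.07 (SE 0.15, limma adjusted p = 3.26e-06). Kcnd1 lies close to Cacna1f on the X chromosome, and both were higher.

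Kcnh2 encodes the ERG channel that ends the heart's action potential (chr5:24319589-24351604), and was the only channel gene lower by at least 2-fold on the deposited scaling (2 were with equal medians and 11 with quantile normalization). It had 28, 19 and 29 reads among controls and 9, 2 and 8 in libraries labelled Zfx-KO, and its level was -0.72 ± 0.33 and -2.82 ± 0.90 log2 CPM (SD, n = 3 each). All controls lay above the other group, and the difference was -2.10 (SE 0.49, limma adjusted p = 0.00547). Its relative Kcnh1 moved the other way, higher by 0.96.

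Calcium- and sodium-activated genes besides Kcnn4 included Kcnt1, a sodium-activated channel gene (chr2:25863734-25918273). It had 0, 4 and 3 reads among controls and 27, 46 and 47 in libraries labelled Zfx-KO, and was higher by 3.82 (SE 0.61, limma adjusted p = 0.000587), or by 3.08 without control replicate 1. Kcnn1, a small-conductance calcium-activated channel gene, was at 1.86, 1.74 and 1.83 log2 CPM against 2.61, 2.61 and 2.73. It was higher by 0.84 (SE 0.12, limma adjusted p = 0.000314), and 132 of its exon bases lie in exons of A230052G05Rik. Tandem-pore genes included Kcnk3, an acid-sensitive channel gene, with no control read and 5, 12 and 18 in libraries labelled Zfx-KO, at least 10.6-fold above 3 reads over the control group (limma adjusted p = 0.000399). Kcnk5, an acid-sensitive channel gene of kidney, was lower by a log2 difference of -0.34, a call lost without control replicate 1 (limma adjusted p = 0.101) and without replicate 2 or 3 of the group labelled Zfx-KO (0.0832 and 0.097).

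Libraries within the group labelled Zfx-KO were not alike for some of these genes. The CPM in replicate 3 relative to the mean of replicates 1 and 2 was 0.41 for Trpc6, 0.35 for Kcne3 and 0.15 for Kcnq3. Among the 8 pericyte markers it was 0.32 for Rgs5, 0.35 for Abcc9, 0.39 for Kcnj8, 0.38 for Notch3 and 0.36 for Higd1b, but 0.91 for Pdgfrb, 0.98 for Cspg4 and 0.80 for Ndufa4l2. For Scn7a it was 1.00, for Cacna1g 1.07, for Kcnd1 1.17 and for Trpm4 1.04. Replicate 3 was thus low for Trpc6, Kcne3 and 5 of the 8 pericyte markers, and near the others for Scn7a and Cacna1g. Of the 24 higher channel genes with at least 50 reads in the group, Trpc6 and Kcne3 were the 2 with a ratio under 0.6. These genes were picked for this contrast after their values were seen, and the part of mural cells in it was not tested.

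**Figure D5:**
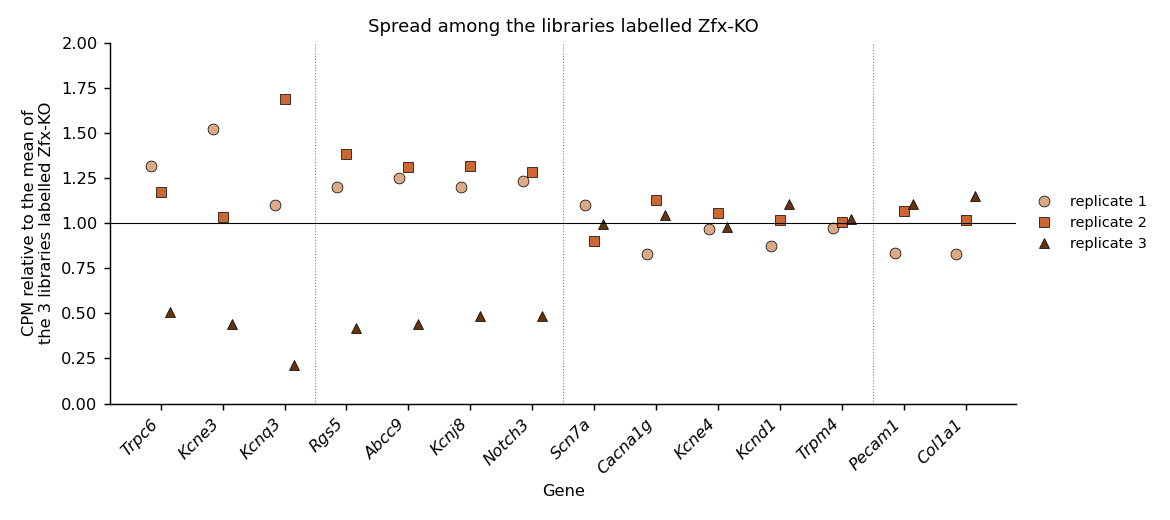
CPM of each library labelled Zfx-KO relative to the mean of the 3, for higher channel genes and for marker genes. Replicate 3 lies lowest for Trpc6 and Kcne3 and for the pericyte markers Rgs5, Abcc9, Kcnj8 and Notch3.

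Trpm2, a channel gene known in macrophages, and Kcnj10, an inward rectifier gene known in glia, were also singled out after their values were seen. Trpm2 was at 0.82, -1.34 and -0.83 log2 CPM among controls and 0.95, -0.56 and -0.69 in the other group (limma adjusted p = 0.666). Kcnj10 had 41, 0 and 11 reads against 27, 7 and 20. Both were highest in replicate 1 of each group, as were macrophage markers, which summed to 163, 35.1 and 76.3 CPM among controls and 189, 71.0 and 88.1 CPM in libraries labelled Zfx-KO. Their part in these values was not tested.

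Of 64 related channel and calcium-handling genes outside the families above, 47 were tested, 21 of them higher and 8 lower (24.9% and 19.5% of all genes), with a median log2 fold change of 0.30. Kcnj8 and Abcc9 form the potassium channel of vascular mural cells that closes when ATP is high. Kcnj8 had a pooled ratio of 179 (95% exact interval 61.0 to 871), and Abcc9 had no control read and was at least 393-fold above 3 reads over the group. Kcnma1, the pore of the large-conductance calcium-activated potassium channel, was at least 24.5-fold and the pacemaker channel gene Hcn4 at least 27.8-fold above the same limit. Piezo2, a touch-sensing channel gene, had a pooled ratio of 201 (95% exact interval 55.4 to 1666), while Piezo1 differed by 0.054 on the log2 scale and did not pass.

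Stim and Orai genes encode the machinery of store-operated calcium entry, which refills calcium after release from the endoplasmic reticulum; 2 of the 5 were lower, where all genes gave 19.5%. Stim1, the calcium sensor of that store, was at 5.59, 5.50 and 5.59 log2 CPM among controls and 4.23, 4.24 and 4.17 in libraries labelled Zfx-KO. It was lower by a log2 difference of -1.35 (SE 0.066, limma adjusted p = 2.4e-07). The membrane channel gene Orai3 was lower by a difference of -0.83, whereas Orai1, Orai2 and Stim2 did not pass. The release channel gene Itpr1 was higher by 1.12 and the calcium pump gene Atp2b4 by 2.73.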

How the data were processed

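RNA-seq libraries of sorted mouse tumor cells (3 control, 3 labelled Zfx-KO) were deposited by the authors as a table of log2 values per gene. The deposited log2 values behave as log2 CPM with a prior of about 1 read. Taken back to reads, all values below 2000 reads were whole within 0.05. The submitters' processing notes name mm10 and GRCh38; gene coordinates are those of the table, on mm10. The sources used here do not give the aligner or the counter. Genes with close copies, such as Gapdh (-2.21 log2 CPM in the controls), were near the floor, so counts of genes with close copies are uncertain.

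From these values, limma 3.58.1 (R 4.3.3) with an intensity trend compared the groups, two-sided, over 20094 genes above the floor of -5.49 in at least 3 libraries with a mean at least 1 log2 unit above it; Benjamini-Hochberg adjustment ran over all of them. A fold change on this scale understates that of scarce genes. Voom on the recovered reads, other scalings, filters, pseudocounts, thinned reads and leaving out each library were alternatives. The procedure was tested on simulated data. Intervals are exact, at 95%, and cover counting error only, since PCR reads are not independent molecules. Replicates differed by more than sampling noise in every pair of a group. Replicate numbers follow record order.

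Genes named in full were the 12 largest rises and falls of at least 2-fold without overlap (only 1 fall qualified), the 8 highest levels per kilobase, and the smallest p in each family, and their partners or neighbours. Channel genes and gene lists were chosen with earlier results of these data known. Some genes that this rule picks are not reported here by name.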

Additional observations from a re-analysis of the deposited data

How the results depend on the processing

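Of 41 channel genes named or called, 28 kept their call and direction in every alternative that tested them. The one reversal was Cacng7, which did not pass in any case, at -0.095 with gene medians set equal. Setting medians equal moved the median of all genes by -0.21 and quantile normalization by -0.17 on the log2 scale. The share of calls that were higher, 82.5% for channel genes and 56.0% for all genes, became 77.1% and 33.6% with equal medians, and 62.8% and 47.5% with quantile normalization. TRP genes, 4 higher and 2 lower, became 3 and 3 with equal medians and 3 and 5 with quantile normalization.

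With equal medians, 3224 of all genes were higher, 6357 lower and 1156 lower by 2-fold, and 2 channel genes were lower by 2-fold. Quantile normalization gave 1540 genes lower by 2-fold, 16 channel genes lower and 11 lower by 2-fold. The stricter filter, which tests fewer genes, gave 1509 genes higher by 2-fold, 17 channel genes higher and 11 higher by 2-fold. Without the intensity trend, 4 channel genes were lower. The channel genes' median log2 fold change was 0.31 with the stricter filter, 0.60 with equal medians, 0.21 with quantile normalization, 0.61 with array weights and 0.46 with a pseudocount 4 times as large; for settings other than the filter, the cause was not tested. Leaving out 1 library at a time gave a median of 0.59 to 0.87, 27 to 34 channel genes higher and 5 to 7 lower. The lowest median came without control replicate 2.

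Leaving out 1 library moved further called genes by over 1.5-fold: Kcne3 was at 4.54 without control replicate 3, Kcnk6 at 3.45 without control replicate 1 and 1.85 without control replicate 2, and Kcnq3 at 3.84 without replicate 3 of the second group. Cacna1b, Cacna1h, Kcnj12, Kcnk2, Kcnk5, Kcnn4, Scn3a, Trpm3 and Trpv3 were among the genes that lost their call without at least 1 library. Kcnn4 lost its call with quantile normalization and Trpm7 without the intensity trend. Depth limits the 21 higher genes with at most 10 pooled control reads. No paired analysis was possible because the labels give no replicate numbers or pairing.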
